A study of Mus musculus with 4 samples.

Results

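The germ cell RNA-binding regulators described here are Dazl, Dnd1, Nanos2, Nanos3 and Elavl2, 5 genes of the 32285 in the deposited count matrices, taken by their exact symbols. Single-cell libraries had been made from primary spermatogonial cultures, which were started from the testes of 3 mouse pups at postnatal day 6 (PND6). Cells carrying the surface protein Thy1, a fraction enriched in undifferentiated spermatogonia, were captured on magnetic columns and grown on a layer of STO cells, a mouse fibroblast line that feeds the germ cells. The medium held GDNF, the growth factor on which spermatogonial stem cells depend. The vehicle group received PBS and the EV group received 1 μg/ml of extracellular vesicles from whole testes of PND7 mice, both for 3 days. The labels name no engineered allele in any group, and the vesicles were not separated by the cell type they came from. Each group had 2 libraries, labelled as biological replicates 1 and 2. Expression was analysed in vehicle 1, vehicle 2 and EV 1, whereas EV 2 was not analysed here, so that a difference between EV and vehicle has no replicate check and is given without a test. For the comparisons within libraries the p-values cover only the spread between these 3 libraries.

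RNA-binding proteins set which messenger RNAs of a germ cell are translated and which are destroyed. DAZL binds the 3′ untranslated regions (3′ UTRs) of its targets and brings in poly(A)-binding protein, which promotes their translation, and germ cells cannot form gametes without it. NANOS proteins work with Pumilio proteins and recruit the CCR4-NOT complex, which removes the poly(A) tail. NANOS2 keeps spermatogonial stem cells undifferentiated, and NANOS3 is needed for the survival of primordial germ cells. DND1 binds the same targets as NANOS2 and helps to load them. ELAVL2, also known as HuB, is a member of the Hu family, binds AU-rich elements and is best known from neurons and gonads.

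The study also followed the microRNAs let-7b and let-7c in the vesicles, so their mature sequences are shown here beside what the 3′ UTRs of the regulators hold. Capitals mark the seed, bases 2 to 8, which pairs with a target. The sequences are those of RefSeq on GRCm38.p6, let-7b-5p at chr15:85707325-85707346 and let-7c-5p at chr15:85706616-85706637 and chr16:77599672-77599693.
mmu-let-7b-5p: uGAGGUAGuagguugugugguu
mmu-let-7c-5p: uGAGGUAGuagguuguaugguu

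Both have the seed GAGGUAG, whose match in a transcript reads CTACCTC. Searched on the RNA strand only, in the transcript of each gene with the longest 3′ UTR, this match was found 0 times in each of the 5 genes. These UTRs are 1854 bases long in Dazl, 360 in Dnd1, 947 in Nanos2, 172 in Nanos3 and 2477 in Elavl2. Among all 3′ UTRs at least as long, cut to the same length, 11.2% held the match at the length of Dazl, 2.25% at that of Dnd1, 6.12% at that of Nanos2, 1.18% at that of Nanos3 and 14.2% at that of Elavl2. An absent match says only that these letters are not in this window.

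Sites for the partners and relatives of the regulators were searched in the same way, TGTANATA for Pumilio and TATTTAT as an AU-rich element, the class of site that Hu proteins bind. The 3′ UTR of Elavl2 held 3 Pumilio matches and 3 AU-rich matches, and 38.4% and 45.8% of UTRs of that length held at least 1 of each. Dazl held 2 AU-rich matches (37.5% of UTRs held at least 1) and 0 Pumilio matches (29.8%). Dnd1 held 1 AU-rich match (8.46%), and Nanos2 and Nanos3 held neither. Shown are the matches of Dazl and the 3 Pumilio matches of Elavl2, with the motif in capitals and up to 9 bases on each side, as DNA letters of the transcript strand. On the minus strand of GRCm38, in that order, they lie at chr17:50280789-50280813, chr17:50280580-50280604, chr4:91251944-91251969, chr4:91251736-91251761 and chr4:91251071-91251096.
Dazl AU-rich 1: tgtactttaTATTTATtatttgtct
Dazl AU-rich 2: catatatccTATTTATttggttggg
Elavl2 Pumilio 1: tttgtgtgaTGTAAATAagaccttgt
Elavl2 Pumilio 2: aattctgtcTGTAGATAgtctagctt
Elavl2 Pumilio 3: taaaatacaTGTATATAtttaaaaaa

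Cells were assigned to a germ class or a feeder class without the use of any of the 5 regulators. A germ class cell had at least 2 UMIs (unique molecular identifiers, 1 per captured RNA molecule) of Tex15, Stk31 and Epcam together, and more of them than of Col1a1, Col1a2, Sparc and Dcn. A feeder class cell had the reverse, and the remaining cells are called cells of neither class. Groups of 3 values are given in the order vehicle 1, vehicle 2, EV 1. The libraries held 23686047, 27444797 and 10793232 UMIs, and 8263, 8637 and 4779 cells were kept. Germ class cells numbered 3651, 4092 and 175, which is 44.2%, 47.4% and 3.66% of the kept cells (95% Wilson interval 3.17 to 4.23 in EV 1). Their median depth was 2032, 2173 and 1338 UMIs per cell. The germ class of EV 1 thus rests on 258873 UMIs in all, and 3 UMIs in it, the limit that a count of 0 allows, come to 11.6 CPM, the UMIs of a gene per 1000000 UMIs of the class. Feeder class cells numbered 2370, 2491 and 2511. The 8 germ cell markers, 3 of which set the class, summed to 2420 to 2700 CPM in the germ class and 6.03 to 45.4 CPM in the feeder class, and the 8 fibroblast markers to 229 to 440 and 3555 to 4040 CPM. Of other testis markers, those of Sertoli cells summed to 32.8 to 54.1 CPM in the germ class and 397.5 to 416 CPM in the feeder class. Sox9, Rhox5 and Gata4 of this list were higher in the feeder class (log2 of germ over feeder −4.025, −4.024 and −2.82). Wt1 was higher in the germ class (1.66), and Amh was at 0 in 5 of the 6 Sertoli sums. Leydig, peritubular myoid, macrophage and endothelial lists each stayed at or below 23.2 CPM in both classes, and their part in the results was not tested. Between libraries, 11 to 22 cell barcodes were shared per pair. All intervals are 95% intervals and cover counting error only.

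The 5 genes lie on 5 chromosomes (coordinates on GRCm38 from GENCODE vM21, the same build as mm10). Dazl spans chr17:50279395-50293636, Dnd1 chr18:36763671-36766214, Nanos3 chr8:84173731-84185217 and Elavl2 chr4:91250763-91400785, these 4 on the minus strand. Nanos2 lies on the plus strand at chr7:18987400-18988962. On the opposite strand, the end of Wdr55 overlaps that of Dnd1 by 140 bases, and the antisense gene Gm45058 overlaps Nanos2 by 766 bases. Whether the counting used the strand was not stated in the sources used here. Gm45058 had 0 UMIs in each of the 3 libraries, and Wdr55 had 369, 474 and 44 UMIs. The values of Dnd1 are uncertain by whatever Wdr55 shares with it. Elavl2 holds the processed pseudogene Gm12653 on the opposite strand (561 bases), and Nanos3 holds the microRNA genes Mir181c and Mir181d on its own strand.

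Dazl, which drives translation of germ cell transcripts, gave 15721 UMIs in kept cells, 78.0% of them in the germ class. In germ class cells it stood at 675.5 CPM in vehicle 1 (Poisson interval 657.8 to 693.6), 672.8 in vehicle 2 (656.7 to 689.2) and 506 in EV 1 (423.1 to 600.5). Feeder class cells had 17.2, 12.9 and 1.03 CPM. The groups of germ and feeder values did not overlap, and the lowest germ value was that of EV 1.

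Dnd1, the partner of the NANOS proteins, had 2071 UMIs in kept cells, 75.1% of them in the germ class. Its germ class level was 87.0, 84.7 and 50.2 CPM, the last from 13 UMIs (26.7 to 85.9 CPM). In the feeder class it was 2.72, 1.94 and 0.294 CPM, far below the germ class in each library.

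Nanos2, the repressor that keeps stem cells undifferentiated, gave 145 UMIs in all kept cells. Germ class cells held 43 UMIs in vehicle 1 (5.28 CPM), 63 in vehicle 2 (6.40 CPM) and 0 in EV 1. Feeder class cells held 4, 1 and 0 UMIs. Nanos3, its relative, had 312 UMIs, of which 60.9% lay in the germ class, the lowest share among the 5. Its germ class level was 12.6, 8.44 and 15.5 CPM from 103, 83 and 4 UMIs, and its feeder class level 2.09, 1.66 and 3.24 CPM from 20, 18 and 22 UMIs. In the feeder class the highest of the 3 values of Nanos3 was thus that of EV 1, unlike the other 4 genes.

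Elavl2 had 2983 UMIs in kept cells, 73.6% of them in the germ class. Its germ class level was 120.3, 120.5 and 115.9 CPM, with an interval of 78.2 to 165.4 in EV 1 from 30 UMIs. The 3 germ class values lay within each other's counting error. Feeder class cells had 12.2, 8.97 and 4.41 CPM.

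**Figure D1:**
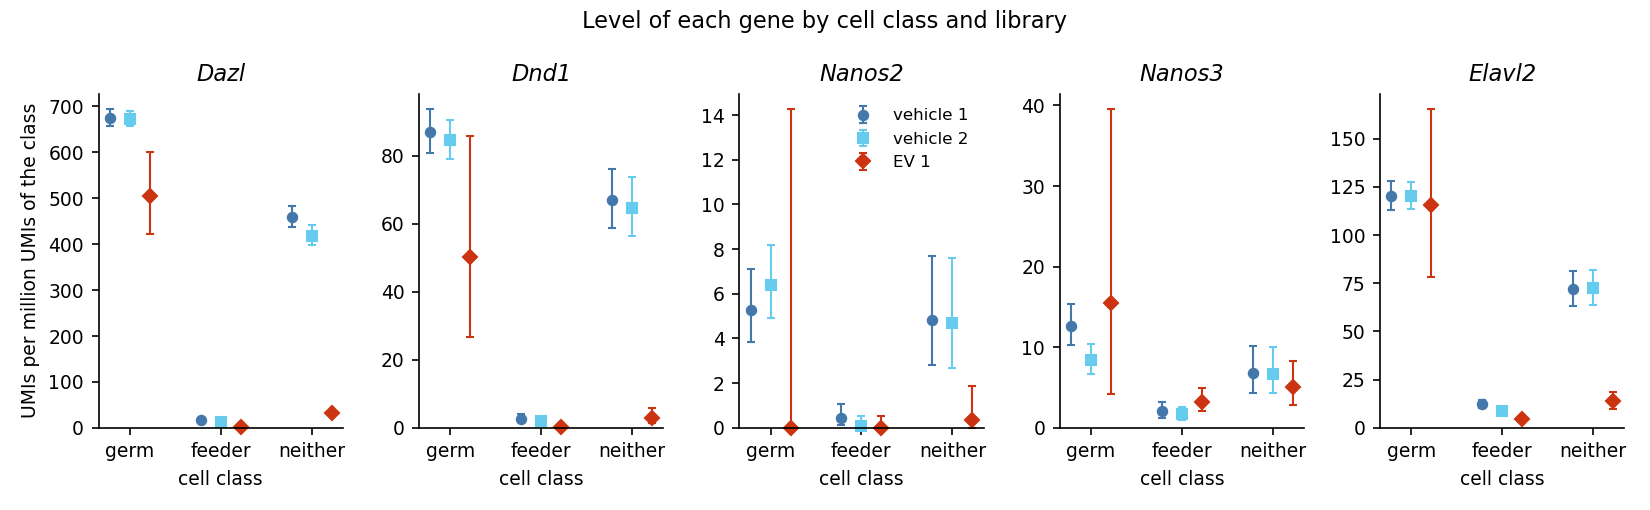
CPM (linear axes that differ between panels) of each regulator in germ class cells, feeder class cells and cells of neither class, with a point per library and 95% Poisson intervals. The germ class points stand above the feeder class points of the same library in every panel except that of Nanos2, where EV 1 is at 0 in both.

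To ask how strongly each gene separates germ cells from feeder cells, UMIs summed per library and class were tested with edgeR's quasi-likelihood test, with the library as a block and Benjamini-Hochberg adjustment over all 15360 genes tested. Of the 5 regulators, 4 passed the filter on low counts and 4 were called higher in the germ class, where 40.2% of all genes tested were called higher in germ and 42.1% higher in feeder cells. That filter also passes a gene that is high in 1 class alone, so that this count is not read against these shares. The log2 difference was 5.52 for Dazl (SE 0.26, adjusted p = 2.9e-18) and 4.95 for Dnd1 (SE 0.16, adjusted p = 9.16e-22). It was smaller for Elavl2, 3.23 (SE 0.12, adjusted p = 1.1e-20), and smallest for Nanos3, 2.05 (SE 0.24, adjusted p = 4.05e-09). Ddx4, a germline helicase, gave 5.58, and Taf4b, a transcription factor subunit, 4.15. Nanos2 did not pass the filter and was tested only in alternatives, at 4.13 without the filter (adjusted p = 5.1e-18) and 4.11 without EV 1 (adjusted p = 3.72e-11).

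To place the UMIs of the regulators in feeder class cells beside those of other germ cell genes, the feeder class level was expressed as a percentage of the germ class level within each library, for the regulators and for 5 germ cell markers that the class rule did not use. The part of free RNA in these values was not tested. In the vehicle libraries the markers Ddx4, Sall4, Mael, Tdrd5 and Taf4b stood at 1.32% to 4.79%. Dazl stood at 2.54% in vehicle 1 (2.16 to 2.97) and 1.91% in vehicle 2 (1.60 to 2.26), and Dnd1 at 3.12% (2.03 to 4.62) and 2.29% (1.41 to 3.53), within the range of the markers. Elavl2 stood at 10.2% (8.33 to 12.3) and 7.44% (5.99 to 9.16), and Nanos3 at 16.6% (9.71 to 26.9) and 19.7% (11.2 to 33.1). The intervals of Elavl2 and Nanos3 in vehicle 1 lie above those of each of the 5 markers. In vehicle 2 this holds for Nanos3, whereas the interval of Elavl2 overlaps that of Taf4b (3.63 to 6.22). Nanos2 had too few UMIs to place, with 7.93% (2.07 to 21.8) and 1.44% (0.036 to 8.35).

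In EV 1, where germ class cells were few, the percentage was 0.204% for Dazl (0.0802 to 0.431) and 0.155% to 1.78% for the markers. Elavl2 stood at 3.81% (2.22 to 6.54), an interval that overlaps those of Taf4b, Sall4 and Tdrd5. Nanos3 stood at 21.0% (7.11 to 83.6) from 4 germ class UMIs, which overlaps that of Tdrd5 (0.272 to 7.15). In the feeder class of EV 1, Dazl was at 0.0692 times (interval 0.0276 to 0.144) and Elavl2 at 0.420 times (0.277 to 0.618) the pooled vehicle level, from 7 and 30 UMIs.

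**Figure D2:**
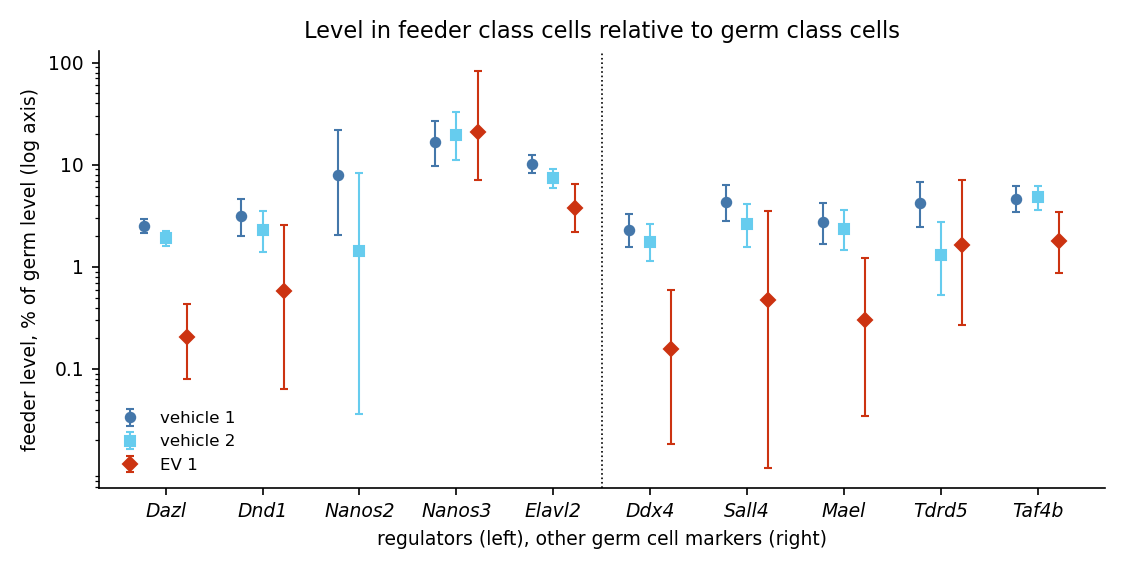
Level in feeder class cells as a percentage of the level in germ class cells of the same library (log axis), for the regulators on the left and 5 other germ cell markers on the right, with 95% intervals from the counts. Nanos3 and Elavl2 stand above Dazl and Dnd1 in each library, and Nanos2 has no EV 1 point because it had 0 UMIs there.

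Feeder class cells that held a UMI of a regulator were then searched for UMIs of Ddx4, Sall4, Mael and Tdrd5, 4 germ cell markers that the class rule did not use. In vehicle 1, 122 feeder class cells held Dazl, and 19.7% of them held a marker, against 2.31% of feeder class cells without Dazl. For Dnd1 the share was 26.1% of 23 cells, against 2.98%. Of 105 cells with Elavl2, 12.4% held a marker against 2.78%, and of 19 cells with Nanos3, 1 did, 5.26% against 3.19%. Vehicle 2 gave 14.4% for Dazl, 33.3% for Dnd1, 9.38% for Elavl2 and 5.56% for Nanos3, the last again from 1 cell. In EV 1, 30 feeder class cells held Elavl2 and 22 held Nanos3, and 0 of either held a marker, which allows shares of up to 10% and 13.6%. Of the other feeder class cells of EV 1, 0.32% held one, so that these zeros do not set the cells apart from the rest of that library. The vehicle feeder cells with a UMI of Elavl2 or Nanos3 were deeper than the others, with a median of 4278 and 4517 UMIs against 3588 and 3594 in vehicle 1. The part of depth in these shares was not tested.

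At the level of single cells, each cell was thinned to 1000 UMIs so that depths could be compared. This left out 96, 80 and 35 shallower germ class cells. Dazl was detected in 48.7% of germ class cells in vehicle 1 (Wilson interval 47.0 to 50.3), 48.8% in vehicle 2 (47.3 to 50.4) and 38.6% of 140 cells in EV 1 (30.9 to 46.8). The share before thinning was 74.4%, 75.9% and 50.9%. Feeder class cells, which should lack Dazl, gave 2.02%, 1.11% and 0.0860% after thinning. Dnd1 was detected in 8.44%, 8.15% and 5.00% of germ class cells, and Elavl2 in 10.4%, 10.7% and 12.1%. Nanos3 was detected in 1.18%, 0.798% and 1.43%, against 0.263%, 0.246% and 0.258% of feeder class cells. Nanos2 was detected in 0.535%, 0.723% and 0 of 140 cells, which allows a share of up to 2.14%. The vehicle shares of Nanos2 lie under this limit, so that a difference was not detectable at this depth.

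Most germ class cells with any of the 5 genes held a single one of them. Counted over the 5 genes, 47.7% of thinned germ class cells in vehicle 1 held exactly 1 of them and 10.4% held 2 or more, with 48.7% and 9.97% in vehicle 2 and 45.7% and 5.71% in EV 1. Dazl was detected in 50.0% of cells with Dnd1 against 48.5% of those without in vehicle 1, in 50.2% against 48.7% in vehicle 2 and in 28.6% of 7 cells against 39.1% in EV 1. With Elavl2 it was 49.1% against 48.6%, 48.4% against 48.9% and 29.4% of 17 cells against 39.8%. These differences were not tested. Nanos2 was seen in 19 and 29 thinned cells, of which 57.9% and 41.4% held Dazl.

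EV 1 was compared with the vehicle libraries first in germ class cells. There the level of Dazl in EV 1 was 0.751 times that of the pooled vehicle libraries (interval 0.627 to 0.892), and its log2 ratio, with 0.5 UMI added to each sum and taken against the vehicle mean of 674 ± 1.91 CPM (SD, n = 2), was −0.41. EV 1 lay below both vehicle libraries by more than the distance between them. Across the alternatives the value for Dazl ran from −0.57 to −0.19. Dnd1 was at 0.586 times the vehicle level (0.311 to 1.005), with a log2 ratio of −0.72, and Elavl2 at 0.962 times (0.648 to 1.38). The direction of Elavl2 was not settled, since its log2 value of −0.03 became 0.27 after thinning and 0.73 with 4 marker UMIs per cell. Nanos3, from 4 UMIs, was at 1.49 times (0.403 to 3.89), an interval that holds both a 2-fold fall and a 2-fold rise. For Nanos2 no fold is given, since 5.28 and 6.40 CPM in the vehicle libraries are below the 11.6 CPM that a count of 0 allows in EV 1, and a difference was not detectable at this depth.

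Of the 3 regulators with at least 200 UMIs in the class (Dazl, Dnd1 and Elavl2), 0 were at least 2-fold lower and 0 at least 2-fold higher in EV 1, where 5.82% of the 9273 genes of that depth were lower and 4.27% higher. With the class set from at least 1 marker UMI, an alternative chosen after seeing the data, Dnd1 passed this threshold at −1.11. The median of all those genes was 0.00475 on the log2 scale. The 3 regulators reached that depth through the vehicle libraries, so that their count is not read against these shares. The germ class of EV 1 was shallower, and its fibroblast markers summed to 440 CPM against 272 and 229 CPM, whose part in these values was not tested. Germ cell markers lay on both sides of the vehicle level in the same cells. Ddx4 was at 1.42 times the vehicle level (1.05 to 1.88), Sall4, a stem cell transcription factor, at 0.465 times (0.2 to 0.919), and Taf4b at 1.00 times (0.675 to 1.44).

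**Figure D3:**
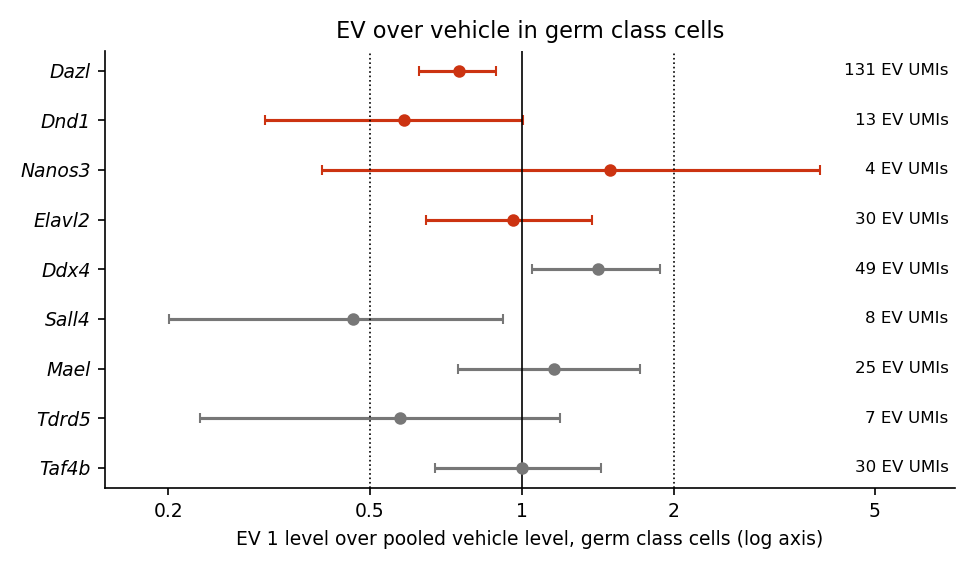
Ratio of the EV 1 level to the pooled vehicle level in germ class cells (log axis), with 95% intervals from the counts and the number of EV 1 UMIs at the right, for 4 regulators in red and 5 germ cell markers in grey. The interval of Dazl (0.627 to 0.892) lies below 1, and dotted lines mark a 2-fold difference either way.

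Over all kept cells the differences were far larger. Dazl stood at 343 and 340 CPM in the vehicle libraries and 23.4 CPM in EV 1, −3.86 on the log2 scale. Dnd1 was lower by −4.21 and Elavl2 by −2.65, whereas Nanos3 gave −0.55, at 6.92, 5.15 and 4.09 CPM, a gap to the nearer vehicle library smaller than that between the vehicle libraries. Over the 12590 genes with at least 200 UMIs, 19.4% were at least 2-fold lower and the median was −0.20. Dnd1, Elavl2 and Nanos3 reached that depth through the vehicle libraries, with 24, 101 and 41 UMIs in EV 1, so that their count is not read against this share. The germ class share of the cells moved with these values, 44.2% and 47.4% against 3.66%, and over all cells fewer germ cells and less RNA per cell cannot be told apart. Nanos2 went from 64 and 80 UMIs to 1, which is 0.0314 times the vehicle level (0.00079 to 0.178).

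Cells of neither class also had less of most of the regulators in EV 1. In them Dazl stood at 459 and 419 CPM in the vehicle libraries and 32.7 CPM in EV 1, and Elavl2 at 71.8, 72.5 and 13.8 CPM. Nanos3 stood at 6.79, 6.72 and 5.05 CPM there, 0.748 times the vehicle level (0.389 to 1.36). Of the UMIs of Dazl, 22.3%, 17.5% and 41.3% lay in cells of neither class. In the feeder class, Dazl and Elavl2 stood at −3.77 and −1.25 on the log2 scale in EV 1, where 2.89% of 9723 genes with at least 200 UMIs were at least 2-fold lower and 1.42% higher and the median was −0.13. Both reached 200 UMIs through the vehicle libraries, with 303 and 214 UMIs there against 7 and 30 in EV 1, so that no count of regulators is read against these shares. Germ cell markers outside the class rule gave −3.41 for Sall4, −2.92 for Ddx4 and −1.36 for Taf4b in the same cells, from 1, 2 and 14 UMIs in EV 1 and under 200 in all. Nanos3 in the feeder class was at 1.74 times the vehicle level (0.978 to 3.01).

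Spermatogonial state was read from 3 genes that are not among the regulators. Gfra1 encodes a receptor for GDNF and marks undifferentiated spermatogonia, and Stra8 and Kit mark the response to retinoic acid and differentiation. Germ class cells with Gfra1 and neither of the others numbered 828, 935 and 18, and those with Stra8 or Kit and no Gfra1 numbered 895, 990 and 24. Median depths were alike in the vehicle libraries, 2135 and 2109 UMIs in vehicle 1 and 2350 and 2270 in vehicle 2.

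Dazl was lower in Gfra1 cells than in Stra8 or Kit cells, at 618 against 757 CPM in vehicle 1 and 641 against 714 in vehicle 2. In EV 1 the values were 525 and 579 CPM from 15 and 24 UMIs. Elavl2 showed the opposite order, with 139 against 108 CPM in vehicle 1 and 137 against 109 in vehicle 2, but 70.04 against 241 CPM in EV 1 from 2 and 10 UMIs. Both Nanos genes were higher in Gfra1 cells of both vehicle libraries. Nanos2 had 7.18 against 4.42 CPM in vehicle 1 and 12.3 against 4.04 in vehicle 2, and Nanos3 had 15.4 against 7.36 and 8.45 against 5.65. Dnd1 had 85.6 against 89.8 and 88.35 against 80.4 CPM, with no common direction.

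By edgeR's quasi-likelihood test over the 3 libraries, 1 of the 4 regulators tested was called higher in Gfra1 cells, against 2.84% of the 11347 genes tested, and 1 higher in Stra8 or Kit cells, against 1.93%. Elavl2 differed by 0.33 on the log2 scale (SE 0.10, adjusted p = 0.0178) and Dazl by −0.21 (SE 0.05, adjusted p = 0.000311). Nanos3 gave 0.88 (adjusted p = 0.208) and Dnd1 0.06 (adjusted p = 0.8865), and neither passed. Nanos2 did not pass the filter on low counts, and was called without EV 1 at 1.23 (adjusted p = 0.0293) but not without the filter, also at 1.23 (adjusted p = 0.166). The calls rest on both vehicle libraries. Without vehicle 1 the values were −0.15 for Dazl and 0.21 for Elavl2 (adjusted p = 0.9996 for both), and without vehicle 2 they were −0.29 (adjusted p = 0.195) and 0.25 (adjusted p = 0.9999). DESeq2 called neither (−0.22 and 0.17, adjusted p = 0.9999 for both).

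**Figure D4:**
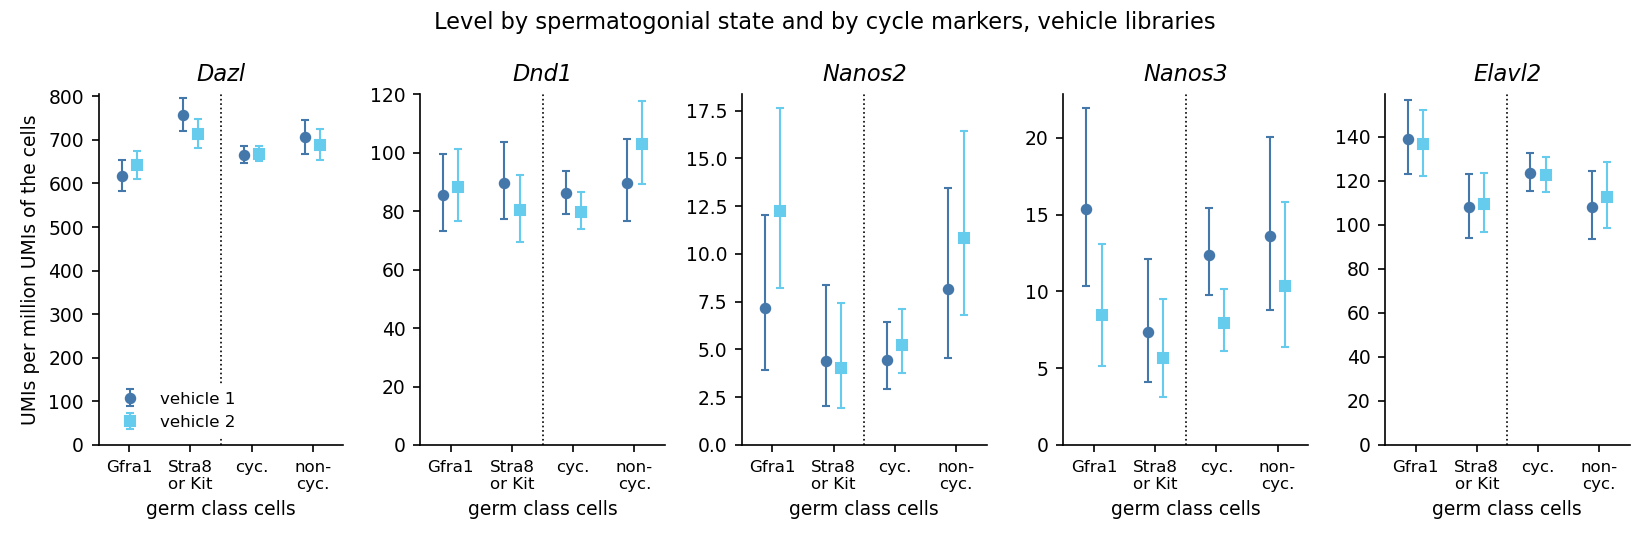
CPM of each regulator in the germ class cells of the vehicle libraries (linear axes that differ between panels, 95% Poisson intervals), on the left of each panel by state and on the right by cycle markers (cyc. with Mki67 or Top2a, non-cyc. without). Dazl stands lower and Elavl2 higher in Gfra1 cells than in Stra8 or Kit cells of both libraries, and Nanos2 stands higher in non-cycling cells.

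Cycling cells were those with at least 1 UMI of Mki67 or Top2a, genes of proliferating cells, and numbered 2564, 2947 and 81 germ class cells against 1087, 1145 and 94 without. The median depth was 2252 UMIs against 1593 in vehicle 1 and 2445 against 1681 in vehicle 2, and its part in the differences was not tested. Nanos2 was lower in cycling cells, 4.44 against 8.16 CPM in vehicle 1 and 5.25 against 10.8 in vehicle 2, from 28 and 41 UMIs against 15 and 22. EV 1 had 0 UMIs of Nanos2 on either side. Dnd1 had 86.2 against 89.8 and 79.9 against 103 CPM, Dazl 666.5 against 706 and 669 against 689, Elavl2 124 against 108 and 122 against 113, and Nanos3 12.4 against 13.6 and 7.94 against 10.3.

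Of the 5 regulators tested, 1 was called by edgeR's quasi-likelihood test and lower in cycling cells, namely Nanos2 at −0.98 (SE 0.33, adjusted p = 0.0333), where 6.7% of the 11648 genes tested were called higher in non-cycling and 8.26% higher in cycling cells. Dnd1 gave −0.24 (adjusted p = 0.0719), Elavl2 0.16 (adjusted p = 0.194), Dazl −0.07 (adjusted p = 0.221) and Nanos3 −0.26 (adjusted p = 0.588). The call of Nanos2 was lost with doublets kept (−0.94, adjusted p = 0.0503), without the filter on low counts (−0.94, adjusted p = 0.0543) and with 1 marker UMI per cell (−0.75, adjusted p = 0.0861), and Nanos2 had too few UMIs to be tested without vehicle 1 or without vehicle 2. Without EV 1 it held, at −0.98 (adjusted p = 0.0173).

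Genes with a like pattern were sought over 16 points, the combinations of 4 states and cycling or not in the 2 vehicle libraries, each point with 61 to 1144 cells. Over 6117 genes with at least 500 UMIs, the highest Pearson correlations of log2(CPM + 1) with Dazl were those of Ldha (0.814), Egr4 (0.811) and C1d (0.811). For Dnd1 they were Sdhaf4 (0.931), Tpd52 (0.851) and Gripap1 (0.850), and for Elavl2 St3gal3 (0.865), Grk5 (0.826) and Gxylt1 (0.806). The points share libraries and depth, and the regulators themselves varied little over them, with an SD of 0.12 log2 units for Dazl, 0.21 for Dnd1 and 0.20 for Elavl2. Nanos2 and Nanos3, with 106 and 186 UMIs in the vehicle germ class, were too rare for this.

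The machinery on which the regulators act was described next, from lists of partners and relatives. The CCR4-NOT deadenylase, which NANOS2 and DND1 recruit, had 8 of its 12 genes called higher and 2 called lower in the germ class, with a median of 0.36 on the log2 scale against −0.04 over all genes tested. With vehicle 1 left out, with vehicle 2 left out and with DESeq2, 5 of the 12 were called higher. Cnot3, a subunit of its NOT module, had the highest value at 1.47, and the lower ones were Tnks1bp1 at −1.32 and the deadenylase Cnot7 at −0.48. Of the decapping and P-body list, which destroys deadenylated RNA, 8 of 10 genes were called higher and 0 lower (median 0.92). Lsm14a lost its call with DESeq2 and with either vehicle library left out, which left 7 of 10, and Dcp1a was called lower after thinning. Dcp1b, an activator of decapping, stood out at 4.75, with 22.5, 22.6 and 23.2 CPM in the germ class against 0.418, 0.925 and 0.294 CPM in the feeder class.

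Of the relatives of the regulators, Nanos1 at 2.26 and Pum3 at 1.22 were called higher in the germ class, while Pum2 gave −0.18 and did not pass. The Hu family and other AU-rich element binders were divided, 3 of 10 higher and 5 lower (median −0.15), which became 1 and 3 without vehicle 1 and also without vehicle 2. Elavl4, a neuronal Hu gene, was the highest at 3.72, with 4.91, 4.67 and 23.2 CPM in the germ class, and Zfp36, which promotes decay, the lowest at −1.35. Elavl1, the ubiquitous member, gave 0.11 and did not pass. Among 5 poly(A)-binding genes, partners of DAZL, Pabpc1 at 1.18 and Paip2 at 1.14 were higher, and Paip1 at −0.95 was lower. All 9 other germline RNA-binding genes were called higher (median 3.99), from Dazap1 at 0.41 to Rbm46 at 5.54, with Boll, a member of the same family as Dazl, at 5.00. Dazap1 lost its call with DESeq2 and with either vehicle library left out, which left 8 of the 9. Of 7 transcripts described as bound by DAZL or NANOS2, 6 were tested and 6 called higher, with Ddx4 the highest. Over all genes, 40.2% were called higher in germ and 42.1% higher in feeder cells. The filter on low counts passes a gene that is high in 1 class alone. Feeder class levels were 0.209, 0.185 and 0 CPM for Tex19.1 and 0.105, 0.370 and 0.147 CPM for Ybx2. The counts of the germline and bound lists are therefore not read against these shares.

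Between states, where 2.84% of all genes were called higher in Gfra1 cells and 1.93% higher in Stra8 or Kit cells, 5 genes of these lists were called. Higher in Stra8 or Kit cells were Rbm46, which is needed for meiosis, at −0.71 (adjusted p = 1.3e-17), Sycp3, which builds the chromosome axis in meiosis and is a described target of DAZL, at −1.07 (adjusted p = 1.2e-45), Lsm14b at −0.53 (adjusted p = 0.0211) and Nanos1 at −0.50 (adjusted p = 0.0185). Of these lists, Zfp36l2 alone was called higher in Gfra1 cells, at 0.46 (adjusted p = 0.00309). Sycp3 and Rbm46 were called with either vehicle library left out as well, and Lsm14b, Nanos1 and Zfp36l2 with neither. DESeq2 called Sycp3 alone of these. The CCR4-NOT and poly(A)-binding lists had 0 of 12 and 0 of 5 genes called by edgeR and by DESeq2, and 1 and 0 at an unadjusted p under 0.05 in edgeR.

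Between cycling and non-cycling cells, 8.26% of all genes were called higher in cycling and 6.7% higher in non-cycling cells, and the lists are read against these shares. Meioc, which sustains meiotic prophase, was higher in cycling cells at 0.54 (adjusted p = 0.000266), as were Edc4 at 0.49, Xrn1 at 0.23 and Elavl3 at 1.5. The value of Elavl3 rests on 86 germ class UMIs over all libraries, and its call was lost with doublets kept and with 1 marker UMI. The poly(A)-binding genes Pabpc1, Pabpc4 and Paip2 were lower, at −0.11, −0.29 and −0.20, as were Pum3 at −0.33 and Tia1 at −0.41. Of these, Meioc was still called without vehicle 2, and none of them without vehicle 1 or with DESeq2. The CCR4-NOT list had 0 of 12 genes called in this comparison by edgeR and by DESeq2, with 3 at an unadjusted p under 0.05 in edgeR and Cnot1 called higher without the filter on low counts. The bound transcripts had 0 of 6, also by both, with 1 at an unadjusted p under 0.05 and Sycp3 called lower with doublets kept.

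In germ class cells of EV 1, 5.82% of all genes with 200 UMIs were at least 2-fold lower and 4.27% higher. List genes of that depth past that fold were Cnot8 at −1.35, Ythdc2 at −1.18, Msi1 at −1.32 and Stra8 at −1.02, beside Dcp1a, which is described below. The EV 1 levels of Cnot8, Ythdc2 and Msi1 were 11.6, 19.3 and 7.73 CPM, where 1 UMI is 3.86 CPM, and these genes reached 200 UMIs through the vehicle libraries, so that their number is not read against these shares. Of the list genes under 200 UMIs, Elavl4 at 2.37, Elavl3 at 1.91 and Zfp36 at 1.21 were past 2-fold in the other direction, from 23.2, 15.5 and 7.73 CPM in EV 1, and Ybx2 and Tex19.1, each at 3.86 CPM, were at 0.11 and −0.01. Sycp1 had 3 UMIs in the class over all libraries and gives no fold. Dcp1a was counted with them, with 12.5 and 13.7 CPM in the vehicle libraries and 0 UMIs in EV 1, where a count of 0 allows 11.6 CPM, so that it gives no fold. Medians of the list genes with 200 UMIs ran from −0.63 for the AU-rich element binders to 0.31 for the poly(A)-binding genes, and Pabpc1, the partner of DAZL, stood at 800 and 844 CPM in the vehicle libraries and 1055 in EV 1. Of the bound transcripts, Sycp3 stood at 219 and 227 CPM in the vehicle libraries and 417 in EV 1, 0.91 on the log2 scale, while Taf7l gave −0.21. In the feeder class 0 list genes of that depth passed a 2-fold difference.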

How the data were processed

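The deposited files are 10x count matrices of UMIs per gene and cell, which the authors made with Cell Ranger 7.0.1 on mm10. They hold whole counts and were not normalized. Cells with 400 to 4000 genes and under 10% mitochondrial UMIs were kept. Those with the highest doublet scores of Scrublet in scanpy 1.11.5 (30 components) were removed, 633, 697 and 198 in vehicle 1, vehicle 2 and EV 1. These numbers were set from the number of cells, at a rate of 0.8% per 1000 cells, and are not calls by Scrublet. Barcodes numbered 9291, 9738 and 5249. UMIs were summed per library and class and given as CPM, counts per 1000000 UMIs of the class.

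Sums were tested with edgeR 4.0.16 (quasi-likelihood, TMM, filterByExpr, library as a block) in R 4.3.3, with Benjamini-Hochberg adjustment over all genes and a threshold of 0.05. The fits were tested on simulated data. DESeq2 1.42.0 was an alternative, as were its size factors, no filter on low counts, doublets kept, 4 or 1 marker UMIs per cell, thinning to 1000 UMIs and each library left out. EV levels are given as a ratio to the pooled vehicle libraries, with nothing added and an exact conditional interval, and as a log2 ratio to the mean of the vehicle libraries, with 0.5 UMI added to each sum. Libraries were grouped by their titles, and the study's own test, which treats cells as replicates, was not used. Named are the 5 regulators, 5 germ cell markers, and genes of the lists that passed a test or had the highest or lowest value of their list. Other genes named for contrast (Pum2, Elavl1, Boll, Pabpc1 and Taf7l in EV 1) were chosen after their values were seen. The regulators and lists were chosen with earlier results of these data known. Promoters and proteins were not used here. Sequences were read from RefSeq GRCm38.p6 (let-7) and GENCODE vM21. A gene of the lists is not reported here.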

Additional observations from a re-analysis of the deposited data

How the results depend on the processing

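The 4 regulators tested between germ and feeder cells were called under every alternative run, Nanos2 being called as well in the 3 that tested it (5 called without the low-count filter, with 1 marker UMI and without EV 1). Of the 2 calls between Gfra1 and Stra8 or Kit cells, 0 were left with DESeq2 and after thinning, 1 without the low-count filter and with 4 marker UMIs, and 0 to 3 with single libraries left out. Over all genes the calls there fell from 541 to 7 with DESeq2, 336 without the filter, 326 with 4 marker UMIs, 89 after thinning and 36 to 38 without a vehicle library. Of the 1 call between cycling and non-cycling cells, 0 were left with DESeq2, without the filter, with doublets kept, with 4 marker UMIs and after thinning, and 0 to 1 with single libraries left out. With 1 marker UMI, chosen after seeing the data, 2 were called, Elavl2 at 0.22 and Dnd1 at −0.27. Nanos2 was not tested with 4 marker UMIs or after thinning, and DESeq2 gave it no adjusted p. Over all genes the calls fell from 1742 to 191 with DESeq2, 701 with 4 marker UMIs, 368 after thinning and 233 to 268 without a vehicle library. In germ cells, 1 regulator instead of 0 was at least 2-fold lower in EV 1 with 1 marker UMI, and over all cells the log2 ratios of Dazl, Dnd1 and Elavl2 ran from −3.88 to −3.57, −4.23 to −3.95 and −2.65 to −2.38. No called value changed sign. Of the values with no call, Elavl2 in EV 1 germ cells (−0.03) became positive with DESeq2 size factors (0.0031), after thinning (0.27), with 2 UMIs added (0.04) and with 4 marker UMIs (0.73), and Dnd1 between states (0.06) became −0.02 with 1 marker UMI and −0.01 after thinning and without vehicle 2. The cause of the lost calls was not tested, apart from the fewer cells and UMIs that thinning, the stricter class and the left-out libraries leave. No paired analysis was possible because the EV group has 1 library with counts, so the groups share 1 replicate number. Depth limits the germ class of EV 1, where a count of 0 in 175 cells allows up to 11.6 CPM.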

Other observations

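The barcodes removed by the cell filters and as doublets, numbering 1028, 1101 and 470 for vehicle 1, vehicle 2 and EV 1, held the regulators too. Dazl stood at 357, 338.5 and 20.8 CPM in them, close to its 343, 340 and 23.4 CPM in the kept cells. Nanos3 stood at 4.51, 10.4 and 2.60 CPM from 11, 35 and 2 UMIs. Of the UMIs of Nanos3 in kept cells, the feeder class held 13.6%, 14.5% and 53.7%, and of those of Elavl2 it held 8.66%, 6.34% and 29.7%. These shares also depend on the sizes of the classes. Over all genes the feeder class held 9562327, 10812917 and 6797649 UMIs and the germ class 8149435, 9839361 and 258873.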
